A study of Mus musculus with 24 samples.

Results

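Islets of old mice collected 14 days after partial pancreatectomy (PPTx) were compared with islets of old mice that had no operation. The sample titles gave the groups, with 2 libraries at day 14 and 4 control libraries, which are 6 of the 24 libraries of the series. All 6 came from male C57BL/6J mice 52 weeks old, no transgene or drug was named for any of them, and PPTx meant removal of 50% of the pancreas. The controls were unoperated rather than sham-operated, so the loss of tissue and the operation itself cannot be told apart. Each library held the isolated islets of 1 or 2 mice according to the methods of the study. A treatment note shared by all samples placed the operation 2 days before collection, so the day was taken from the titles. Old islets at day 2 (4 libraries) and day 7 (2 libraries), and islets of mice 8 weeks old without an operation (4 libraries) or at day 14 (2 libraries), served for further comparisons.

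An islet is a cluster of endocrine cells in which beta cells make insulin, alpha cells glucagon, delta cells somatostatin and PP cells pancreatic polypeptide, threaded by a dense bed of fenestrated capillaries. Removal of pancreas is known to drive beta cells into the cell cycle, more readily in young than in old mice, and to switch on secreted lectins of the Reg family. Islets freed by digestion always carry some acinar tissue, the enzyme-producing part of the pancreas, together with ducts, fibroblasts and leukocytes.

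Total counts were 6883468 to 9256957 in the controls, and 7689794 and 12379646 at day 14. A single count was worth 0.0835 to 0.146 units of normalised count (CPM, read counts scaled to library size with TMM factors over the 12 old libraries) in these 6 libraries. Both day 14 libraries and control replicates 1 and 2 carried one run label in their file names (the first run label), and control replicates 3 and 4 carried another. Of all mapped reads, those in genes made up 51.9% and 53.4% in the first-run controls, 37.6% and 23.2% in the second-run controls, and 46.9% and 48.2% at day 14. The file names also held a collection code that was specific to each group, so code and group cannot be told apart. Insulin transcripts checked the tissue, since Ins2 stood at 92650 to 117700 CPM in the controls and at 102700 and 103900 CPM at day 14. Nothing in the labels says whether libraries came from separate isolations, so p-values measure the spread between these libraries only.

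No gene passed the test between day 14 and control. The quasi-likelihood test of edgeR on the 12 old libraries (two-sided, Benjamini-Hochberg adjustment) called 0 of 15521 genes, which is 0%, and the lowest adjusted p was 0.760. At an unadjusted p below 0.05 there were 830 genes (5.35%), of which 362 (2.33%) were higher and 468 (3.02%) lower at day 14. DESeq2 on the same libraries called 3 genes, all lower at day 14, and these were the von Willebrand factor gene Vwf, the pyruvate dehydrogenase kinase Pdk4 and the matrix proteoglycan gene Fmod. Both day 14 libraries lay above all 4 controls for 1282 genes (8.26%) and below all 4 for 1122 genes (7.23%). Against the 2 first-run controls alone these shares were 20.1% and 18%.

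The named genes of each direction were those with the smallest unadjusted p among genes whose day 14 libraries both lay outside the 4 controls, so their lack of overlap was set by the choice. Among the 12 lower genes several are known from endothelium. They include Vwf, the adhesion molecule Pecam1, the hypoxia-regulated transcription factor Epas1, the adrenomedullin receptor subunit Calcrl and the caveolar protein Cav2. In the 4 controls Pecam1 (NCBIM37 chr11:106515531-106611942, minus strand) was at 43.9, 45.4, 36.9 and 46.6 CPM, and at day 14 it was at 27.6 and 30.3 CPM. Both day 14 values lay below the lowest control, and the log2 fold change was -0.58 (SE 0.125, unadjusted p = 0.000621, adjusted p = 0.760 by edgeR). Epas1 was at 55.6, 64.2, 65.3 and 66.1 CPM in the controls and at 44.7 and 48.1 CPM at day 14, a log2 difference of -0.44 (SE 0.103). Calcrl was at 29.4, 34.8, 32.0 and 30.8 CPM in the controls and at 18.7 and 24.6 CPM at day 14, a log2 difference of -0.54 (SE 0.130). The groups did not overlap for either gene, and neither passed the adjusted threshold.

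Vwf (chr6:125496792-125636697, plus strand) encodes the clotting factor stored in endothelial cells. It was at 6.402, 28.8, 3.84 and 25.9 CPM in the controls and at 0.269 and 0.751 CPM at day 14. These day 14 values stood for 2 and 9 counts, and the controls ranged from 38 to 198 counts, high in replicates 2 and 4 and low in replicates 1 and 3. The log2 fold change was -4.84 (SE 1.18, adjusted p = 0.760 by edgeR), and DESeq2 gave -4.95 with an adjusted p of 0.00102. Fmod (chr1:135933831-135944854, plus strand), which encodes the collagen-binding proteoglycan fibromodulin, stood at 1.51, 20.4, 6.17 and 19.2 CPM in the controls and at 0.403 and 0.751 CPM at day 14. Its highest libraries were again control replicates 2 and 4, and DESeq2 gave a log2 fold change of -4.34 with an adjusted p of 0.0125. Against control Fmod lay outside the rule for named genes and was chosen after its values were seen. The rule did name it for the difference with age.

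Pdk4 (chr6:5433351-5446309, minus strand) encodes the kinase that turns down pyruvate dehydrogenase in fasting. Its controls were close together, at 18.6, 26.5, 20.5 and 16.2 CPM, while the day 14 libraries were at 7.13 and 5.43 CPM. Day 14 was 0.305 times the control level, a log2 fold change of -1.71 (SE 0.340, unadjusted p = 0.000288, adjusted p = 0.760 by edgeR). DESeq2 gave -1.72 with an adjusted p of 0.00464. Pdk4 was at 14.5 and 11.9 CPM at day 7 and between 12.2 and 31.4 CPM at day 2.

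The remaining lower genes had modest differences. Sparcl1, a matricellular protein gene, was at 44.9 to 72.8 CPM in the controls and at 28.9 and 38.2 CPM at day 14. Cav2 was at 19.96 to 24.5 CPM against 12.9 and 15.6 CPM. Igfbp5, an insulin-like growth factor binding protein gene, was at 13.8 to 29.8 CPM against 12.9 and 11.9 CPM, so that its lowest control lay just above the day 14 values. Gad1, the enzyme that makes GABA in beta cells, was at 185.1 to 223 CPM against 155.7 and 140 CPM. At day 2 it was at 118.5 to 148.2 CPM, and at day 7 at 114.2 and 130.9 CPM. The lysosomal amino acid carrier gene Slc36a1, the actin regulator gene Wash and the silencing scaffold gene Tnrc6a completed the 12, and over all of them the log2 fold changes ran from -4.84 to -0.40. With first-run libraries alone they ran from -4.94 to -0.37.

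The 12 higher genes were drawn from many functions. Smn1 (chr13:100894807-100907645, plus strand), whose product assembles spliceosomal particles, was at 10.3, 6.11, 10.01 and 9.92 CPM in the controls and at 17.2 and 21.9 CPM at day 14. That was 2.15 times the control level, a log2 fold change of 1.103 (SE 0.216, unadjusted p = 0.000249, adjusted p = 0.760 by edgeR), and all 6 libraries at the earlier days lay between 8.09 and 11.3 CPM. Car15, a carbonic anhydrase gene, was at 8.19 to 14.7 CPM in the controls and at 22.1 and 28.1 CPM at day 14. It was at 13.3 to 26.7 CPM at day 2 and at 25.3 and 13.8 CPM at day 7. Foxo6, a forkhead factor gene, was at 6.27 to 9.67 CPM against 14.4 and 14.8 CPM, and was at 19.9 and 18.5 CPM at day 7. Ntm, a neural adhesion gene, was at 3.34 to 4.96 CPM against 8.47 and 7.01 CPM. Each of these 4 genes was separated between the groups.

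Other genes on the higher side differed by less. Synpr, a synaptic vesicle protein gene, was at 59.4 to 77.8 CPM in the controls and at 108.3 and 88.3 CPM at day 14. Kpna2, a nuclear import receptor known to be high in dividing cells, was at 110.3 to 132.7 CPM against 202.4 and 147.1 CPM. Its earlier values were 127.6 to 167.1 CPM at day 2 and 206.8 and 223.7 CPM at day 7. Mtfp1, which acts in mitochondrial fission, was at 8.87 to 12.4 CPM against 14.8 and 17.3 CPM. It was already at 15.2 to 18.95 CPM at day 2 and at 15.5 and 16.2 CPM at day 7. Sephs2, Bbs7, Clstn3, Abcb9 and Wdr20a made up the rest, and the 12 log2 fold changes ran from 0.37 to 1.23. With first-run libraries alone they ran from 0.29 to 1.25.

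**Figure D1:**
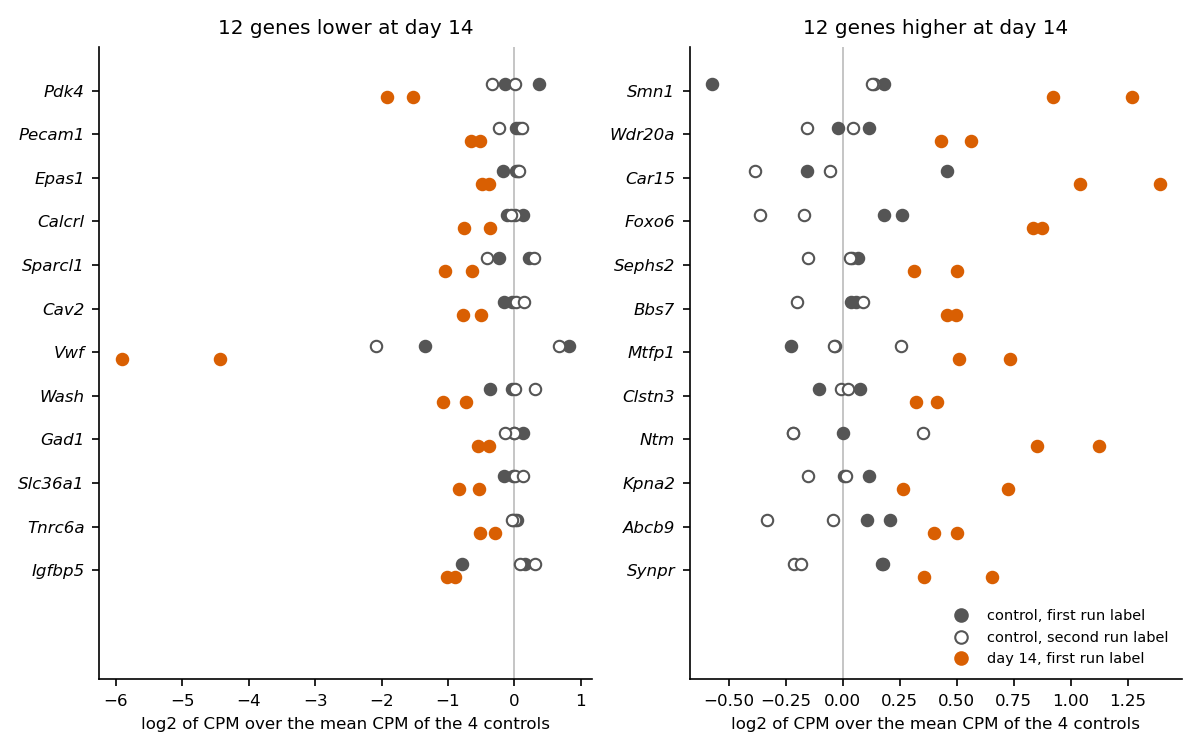
Level in each library of the 12 lower (left) and 12 higher (right) genes with the smallest unadjusted p, as the log2 of CPM over the mean CPM of the 4 controls. Each point is a library, grey for control and orange for day 14, and open points carry the second run label. Both orange points lie outside the grey points in every row, which the rule for naming the genes required, and Vwf spreads widest.

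Endothelial markers had fitted differences below 0 in every tested member. Of 14 listed genes 13 were tested, and all 13 had a negative log2 fold change, beside 8496 of all 15521 genes. The list median was -0.27, beside -0.04 for all genes tested. The median was -0.09 without day 14 replicate 1 and -0.16 without control replicate 2. The 3 members Pecam1, Vwf and the transcription factor gene Ets1 were lower at an unadjusted p below 0.05, beside 3.02% of all genes. Below all controls lay 4 members, beside 7.23% of all genes, but none passed the adjusted threshold. Ets1 was at 39.8, 40.7, 37.6 and 46.6 CPM in the controls and at 36.6 and 31.3 CPM at day 14. The defining markers Kdr and Cdh5 had log2 fold changes of -0.14 and -0.31, and Cdh5 overlapped between the groups. In bulk islets fewer endothelial cells and less RNA per endothelial cell cannot be told apart. Averaged over the 13 genes, log2 CPM was 4.91 to 5.47 in the controls and 4.48 and 4.75 at day 14. It was 4.63 and 4.46 at day 7. This mean includes Vwf, which had 2 and 9 counts at day 14. Summed over the list, the controls were at 762.3 to 1036 CPM and day 14 at 678.3 and 794.7 CPM, so the sums overlapped.

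Fibroblast and stellate markers had mostly negative fitted differences. The median of the 18 tested members was -0.77, with 16 negative, 6 at an unadjusted p below 0.05 and 3 below all controls. Of all 15521 genes 8496 were negative, 3.02% were lower at that p and 7.23% lay below all controls. The list median was -0.32 without control replicate 4 and -0.51 without day 14 replicate 1. It was -0.35 with the 8 first-run libraries and -0.15 with the replicate block. Dcn, which encodes the matrix proteoglycan decorin, was at 12.3, 61.2, 30.7 and 73.8 CPM in the controls and at 9.55 and 16.3 CPM at day 14. Pdgfra, the growth factor receptor that marks mesenchymal cells, was at 1.004, 17.2, 4.45 and 10.8 CPM against 0.403 and 1.84 CPM. For both genes control replicate 1 lay between the day 14 libraries, and replicates 2 and 4 were highest, the same 2 libraries that were high for Vwf and Fmod. Summed over the list, control replicate 1 was at 279.7 CPM, replicates 2 to 4 were at 372 to 716.2 CPM, and day 14 was at 276.8 and 363.4 CPM. Whether this tissue carries part of the Vwf and Fmod difference was not tested.

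Acinar markers gave the largest differences of any list. All 19 tested members of 22 listed were lower, 18 of them below all 4 controls. The median log2 fold change was -3.04, and 9 were lower at an unadjusted p below 0.05. Of all 15521 genes 8496 were lower, 7.23% lay below all controls and 3.02% were lower at that p. Cel, a bile salt-activated lipase, was at 768.5, 99.8, 254.3 and 416.4 CPM in the controls and at 51.6 and 9.35 CPM at day 14, a log2 difference of -3.68 (SE 1.52, adjusted p = 0.760 by edgeR). Cpb1, a carboxypeptidase, was at 219.3, 28.7, 92.8 and 150.9 CPM against 15.3 and 4.93 CPM. Sycn, a zymogen granule protein gene, was at 66.7, 8.15, 22.6 and 33.9 CPM against 3.23 and 1.67 CPM. DESeq2 on only the 6 libraries, a setting chosen after seeing the data, called 10 genes, which are named further on. Sycn was among them, with the highest adjusted p of the 10 (0.0497 by DESeq2). Summed over the list, the controls ranged from 606.9 to 3852 CPM and day 14 was at 409.9 and 164.2 CPM. Acinar transcripts varied several-fold among controls, and every day 14 value of the 18 genes was under the lowest control. At the earlier days the list summed to 544.2 to 16580 CPM.

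Genes of the Reg family, secreted lectins known for their rise in the damaged pancreas, were low at day 14. The 6 tested members all had fitted differences below 0, beside 8496 of all 15521 genes. The list median was -1.64, and 2 members lay below all controls, beside 7.23% of all genes. Reg1 (chr6:78375974-78378661, plus strand), which acinar cells also make, was at 62.6, 17.9, 24.4 and 32.2 CPM in the controls and at 4.84 and 2.67 CPM at day 14, a log2 fold change of -3.24 (SE 1.36, unadjusted p = 0.0343, adjusted p = 0.760 by edgeR). DESeq2 on only the 6 libraries, a setting chosen after seeing the data, called Reg1 (-3.21, adjusted p = 6.0e-07). Reg2 was at 0.628 to 1.44 CPM in the controls and at 0.403 and 0.251 CPM at day 14, from 3 counts in each library. Reg3a, Reg3b, Reg3d and Reg3g had between 0 and 15 counts in every control and between 0 and 3 at day 14, too few to compare these groups. The members are close paralogs and only uniquely mapped reads were counted, so the division of reads among them is uncertain. With first-run libraries alone the sign of the fitted difference turned for Reg3a, Reg3b and Reg3g, and with the run label in the model it turned for Reg2 and Reg3d as well.

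Against the earlier days the same genes were far lower at day 14. Reg3b was at 22.01 to 571.4 CPM at day 2 and at 108.8 and 12.8 CPM at day 7, and at day 14 it had 0 and 3 counts. Reg3g was at 1.51 to 122 CPM at day 2, at 16.1 and 2.15 CPM at day 7, and at 0.135 and 0.167 CPM at day 14. Reg2 was at 17.7 to 601 CPM at day 2 and at 100.2 and 28.6 CPM at day 7. All 6 members lay below every library of day 7 and of day 2, where 24.2% and 8.17% of all genes did so, and the median log2 differences were -6.57 and -8.10. Their adjusted p by edgeR was 0.278 to 0.490 against day 7 and 0.303 to 0.609 against day 2, so none passed. When the percentage of reads in genes was a term, edgeR called Reg2, Reg3a and Reg3b against day 7 (adjusted p = 0.000945, 0.00369 and 0.00106) and Reg2 and Reg3b against day 2 (adjusted p = 0.00484 for both). DESeq2 called Reg2 against day 7 (adjusted p = 0.000210) and Reg2 and Reg3b against day 2 (adjusted p = 1.2e-08 and 3.4e-05). Acinar marker sums were also higher at day 7, at 963.2 and 5804 CPM, than at day 14, at 164.2 and 409.9 CPM. In day 2 replicates 1 to 4 the sums were 544.2, 1256, 3892 and 16580 CPM. Reg2 in those libraries was at 17.7, 39.8, 156.6 and 601 CPM. Control replicate 1 had a sum of 3852 CPM with Reg2 at 0.628 CPM. The part of acinar tissue in the Reg difference was not tested.

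**Figure D2:**
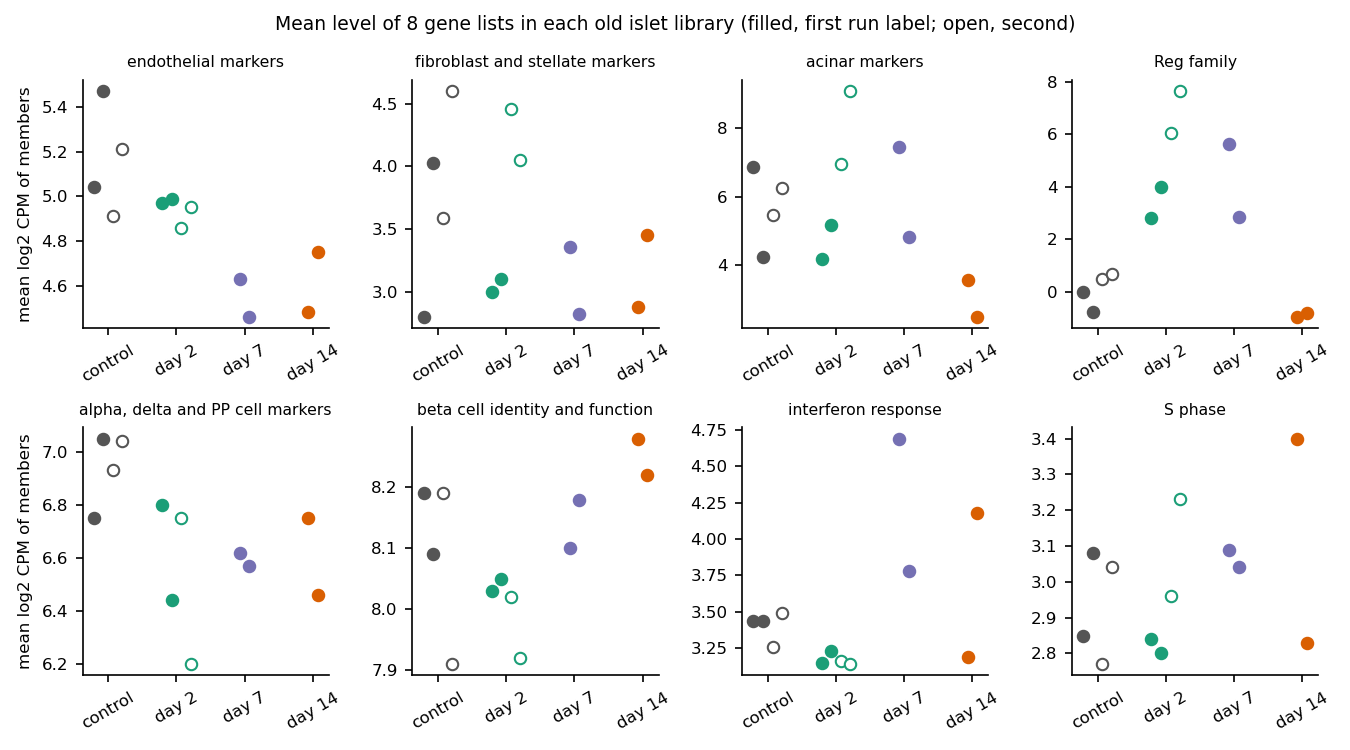
Mean log2 CPM of the tested members of 8 gene lists in each old islet library, by day. Filled points carry the first run label and open points the second. Endothelial markers sit at 4.48 and 4.75 at day 14 under all controls, acinar markers at 3.56 and 2.48, and the Reg family at -0.95 and -0.80 after its high values at day 2 and day 7. The summed CPM of the endothelial list, not drawn here, overlapped between day 14 and control.

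Hormone genes did not pass the test, and alpha cell genes had the lowest values. Gcg (chr2:62312587-62321707, minus strand), the glucagon gene, was at 15250, 26980, 14800 and 15910 CPM in the controls and at 12960 and 5086 CPM at day 14. Both day 14 values lay below the lowest control, though they differed from each other by more than the 3 lower controls did, and the log2 fold change was -1.02 (SE 0.473, unadjusted p = 0.0531, adjusted p = 0.760 by edgeR). It was -0.48 without day 14 replicate 2 and -1.82 without replicate 1. At the earlier days Gcg was also low, at 4366 to 14410 CPM at day 2 and at 12550 and 8641 CPM at day 7. Ttr, a transport protein gene strongly expressed in alpha cells, was at 493 to 805.3 CPM against 491.5 and 266.9 CPM. It was at 234 to 489.6 CPM at day 2 and at 344 and 334 CPM at day 7. For both genes day 14 replicate 2 was the lowest of the control and day 14 libraries. Among the 12 alpha, delta and PP markers 4 lay below all controls, the median was -0.24, and 1 was lower at an unadjusted p below 0.05. Of all genes 7.23% lay below all controls and 3.02% were lower at that p.

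Other hormones overlapped between the groups. Of the 8 tested, 5 lay below both first-run controls, where 18% of all genes did so. Ins1 was at 18450 and 16820 CPM in the first-run controls, 17000 and 14130 CPM in the others and 14710 and 14090 CPM at day 14, a log2 difference of -0.20 (SE 0.143). Ins2 was at 117700 and 113500 CPM in the first-run controls, 117700 and 92650 CPM in the others and 102700 and 103900 CPM at day 14. It differed by -0.10 (SE 0.141) and the amyloid peptide gene Iapp by 0.19 (SE 0.286). Iapp split by run label, with 30270 and 29820 CPM in the first-run controls, 17980 and 15490 CPM in the others and 26690 and 26630 CPM at day 14, so its sign turned when only first-run libraries were used. Sst was at 544.4 to 748.3 CPM against 597.4 and 614.5 CPM, and Ppy was at 2168 to 5110 CPM against 3821 and 7086 CPM.

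Genes of beta cell identity were close to control. Of the 23 tested members 20 had a positive log2 fold change, beside 7025 of all 15521 genes. The list median was 0.15, or 0.06 without control replicate 4. Above all controls were 3 members, beside 8.26% of all genes, and 1 was higher at an unadjusted p below 0.05, beside 2.33%, so both counts were near the background. That gene was Chga, the granule protein chromogranin A, at 15990, 13600, 15090 and 14290 CPM in the controls and at 17540 and 20910 CPM at day 14, a log2 difference of 0.38 (SE 0.132, unadjusted p = 0.0131, adjusted p = 0.760 by edgeR). Pdx1, the master transcription factor of beta cells, was at 25.2, 24.7, 37.3 and 32.6 CPM against 39.0 and 35.0 CPM, and overlapped. Foxa2 was at 54.7 to 78.5 CPM against 70.7 and 81.2 CPM. The mean log2 CPM of the list was 7.91 to 8.19 in the controls and 8.28 and 8.22 at day 14, so the groups were close but did not overlap.

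Chaperones of the endoplasmic reticulum (ER), where proinsulin folds, were higher than the second-run controls and level with the first-run controls. The mean log2 CPM of the 18 tested members was 8.71 and 8.75 at day 14, 8.74 and 8.73 in the first-run controls and 8.40 and 8.27 in the others. The median log2 fold change was 0.20 with all controls, with 15 positive and 6 above all controls. Of all 15521 genes 7025 were positive and 8.26% lay above all controls. With first-run libraries alone the list median was 0.01. There 6 members lay above and 6 below both controls, beside 20.1% and 18% of all genes. Hyou1, an ER chaperone, was at 565.5, 449.4, 655.9 and 553.2 CPM in the controls and at 716.8 and 800.4 CPM at day 14, a log2 difference of 0.45 (SE 0.167). Sdf2l1, another ER chaperone, was at 133.7 to 219.5 CPM against 238.2 and 245.3 CPM. Hsp90b1 was at 961.2 to 1413 CPM against 1424 and 1432 CPM, which is next to the highest control. Hspa5, the main ER chaperone, was at 2696, 2960, 1998 and 1903 CPM against 2788 and 2850 CPM, so it matched the first-run controls and exceeded the others. None of the 18 passed the adjusted threshold.

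Most cell cycle genes did not separate the groups, and the pair of day 14 libraries differed from each other. Of 26 tested S phase genes 1 lay above and 0 below all controls, beside 8.26% and 7.23% of all genes. Mcm5, a replication licensing helicase subunit, was at 3.54 to 6.65 CPM in the controls and at 11.57 and 3.01 CPM at day 14. Mcm2 was at 11.2 to 16.7 CPM against 21.7 and 12.3 CPM, and Mcm6 at 20.02 to 22.6 CPM against 28.1 and 19.8 CPM. For these 3 genes day 14 replicate 1 was the highest of the 6 libraries, and replicate 2 was within or just under the range of the controls. Mki67, the proliferation antigen, was at 5.16 to 8.48 CPM against 8.20 and 3.26 CPM, and Pcna was at 22.7 to 27.5 CPM against 30.1 and 24.6 CPM. Over the 26 tested S phase genes the median was 0.19 with both libraries, 0.42 with replicate 1 alone and -0.11 with replicate 2 alone. Rfc3, a clamp loader subunit gene, had the smallest p of that list, at 4.18 to 5.96 CPM against 10.5 and 6.26 CPM, a log2 difference of 0.68 (SE 0.272, unadjusted p = 0.0278, adjusted p = 0.760 by edgeR). Timeless and Mcm7 were next, with log2 differences of 0.48 (SE 0.272) and 0.26 (SE 0.153).

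Mitotic genes did not separate the groups. Of 20 tested G2/M genes 0 lay above and 0 below all controls, beside 8.26% and 7.23% of all genes. The median over the 20 was -0.44, and it rested on single libraries. It was -1.0 without day 14 replicate 1, -0.08 without replicate 2, -0.11 without control replicate 4 and -0.75 without control replicate 3, and 0.08 with the replicate block and the share of reads in genes in the model. Kif11, a spindle motor, was at 3.77, 5.38, 10.1 and 35.1 CPM in the controls and at 5.38 and 2.42 CPM at day 14. Ube2c was at 2.26, 2.76, 5.66 and 17.5 CPM against 2.82 and 1.67 CPM, and Cenpf at 2.53 to 9.66 CPM against 4.03 and 1.503 CPM. Control replicate 4 was the highest library for all 3. Among cell cycle inhibitors Cdkn1a (p21) was at 9.92 to 18.3 CPM against 10.9 and 9.27 CPM. Cdkn2a had 0 or 1 count in each control and 0 in both day 14 libraries, which allows up to 0.403 and 0.251 CPM there (3 counts, counting error only). Trp53, the p53 gene, was at 34.9, 30.4, 33.7 and 38.0 CPM against 47.7 and 45.4 CPM, a log2 difference of 0.44 (SE 0.127, unadjusted p = 0.00443, adjusted p = 0.760 by edgeR) with no overlap. The 13 tested inhibitors had a median of -0.03.

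Interferon-response genes were higher in one day 14 library. The median of the 18 tested members was 0.30, with 17 positive and 4 above all controls. Of all 15521 genes 7025 were positive and 8.26% lay above all controls. However, the list median was 0.80 with replicate 2 alone and -0.11 with replicate 1 alone. The chemokine gene Cxcl10 belonged to the inflammation list instead. It was at 0.502 to 1.18 CPM in the controls and at 0.269 and 9.35 CPM at day 14. Its log2 fold change of 2.45 (SE 0.880) thus came from replicate 2. Irf7 was at 5.06 to 10.3 CPM against 10.6 and 16.5 CPM. Oas1a, a sensor of double-stranded RNA, was at 3.54 to 5.52 CPM against 6.46 and 10.2 CPM, a log2 difference of 0.91 (SE 0.270, unadjusted p = 0.00547, adjusted p = 0.760 by edgeR). Irf1 was at 45.0 to 47.4 CPM against 57.0 and 57.4 CPM, one of the few members with both day 14 libraries alike. The mean log2 CPM of the list was 3.26 to 3.49 in the controls, 3.19 and 4.18 at day 14, and 4.69 and 3.78 at day 7.

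Metabolic lists had small positive medians. All 15 tested genes of cholesterol synthesis had a positive log2 fold change, with a median of 0.27. Above all controls were 3, and 3 were higher at an unadjusted p below 0.05. Of all 15521 genes 7025 were positive, 8.26% lay above all controls and 2.33% were higher at that p. The list median was 0.10 without day 14 replicate 2 and 0.12 without control replicate 2. The 3 genes were Nsdhl (10.4 to 13.8 against 14.3 and 21.8 CPM), Sqle (167.4 to 198 against 207.2 and 230.3 CPM) and Dhcr7 (21.2 to 24.7 against 28.4 and 27.1 CPM). Of the 11 tested glycolysis and hypoxia genes 5 lay above all controls, beside 8.26% of all genes, and their median was 0.18. Gapdh was at 519.5 and 477.6 CPM in the first-run controls, 325.8 and 380.2 CPM in the second-run controls and 591.7 and 614.3 CPM at day 14, so the controls split by run label. Higd1a, a hypoxia-induced mitochondrial protein gene, went the other way, at 7.16 to 15.7 CPM against 7.67 and 5.26 CPM.

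Immediate early genes, which respond within minutes to stimulation or handling of tissue, had mostly negative fitted differences. The median of the 18 tested members was -0.59, with 15 negative, 7 below all controls and 2 at an unadjusted p below 0.05. Of all 15521 genes 8496 were negative, 7.23% lay below all controls and 3.02% were lower at that p. Klf2, a shear-responsive transcription factor of endothelium, was at 11.63 to 17.5 CPM in the controls and at 6.32 and 10.9 CPM at day 14, a log2 difference of -0.66 (SE 0.245). Junb was at 34.8, 37.4, 43.8 and 61.5 CPM against 25.8 and 30.5 CPM. Egr1 was at 14.6 to 33.4 CPM against 8.74 and 17.7 CPM, and the groups overlapped. At day 7 Egr1 was at 69.8 and 43.0 CPM and Junb at 114.8 and 71.3 CPM, above every control. With the run label in the model the median of the list was -0.21, and without control replicate 4 it was -0.30.

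**Figure D3:**
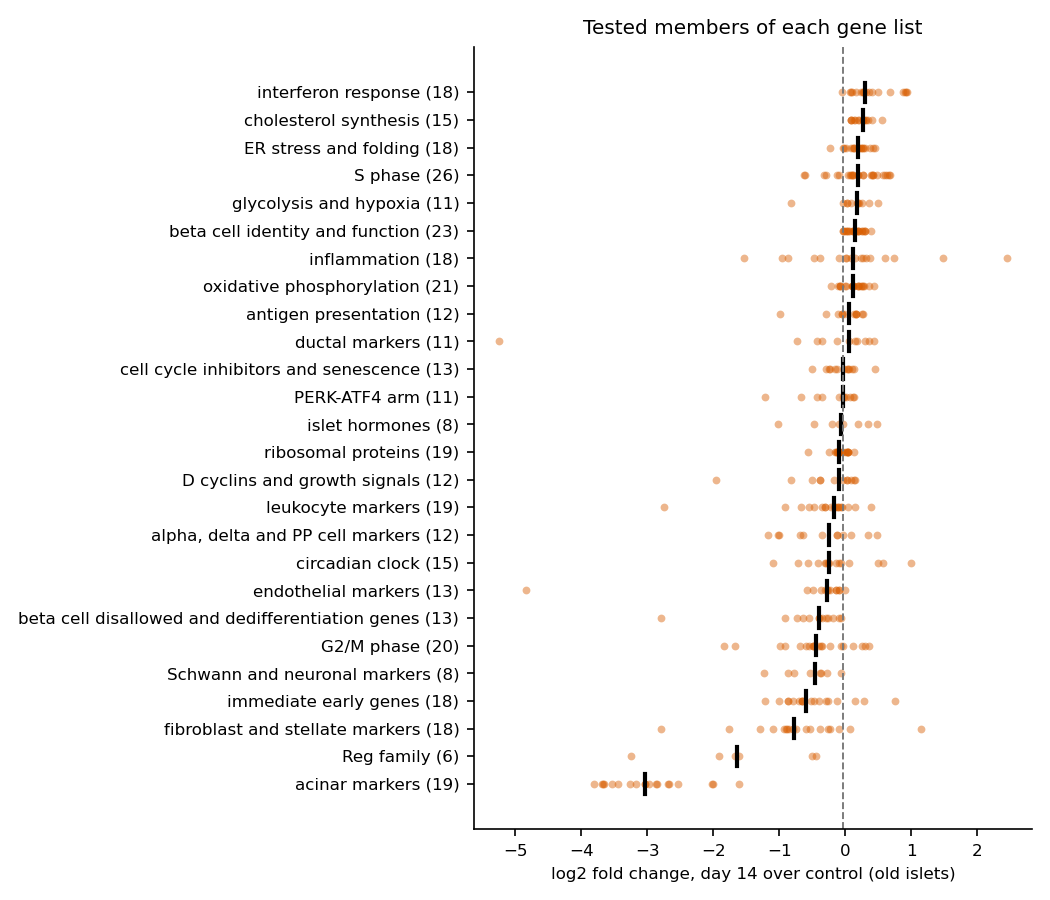
Log2 fold change of day 14 over control for the tested members of each of the 26 gene lists, with the number tested in brackets. Each point is a gene, the black bar is the list's median, and the dashed line is the median of all genes tested (-0.04). Acinar markers (-3.04) and the Reg family (-1.64) lie farthest to the left, and the interferon response (0.30) farthest to the right.

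Day 14 differed from day 7 in 2 genes that passed the test. Both comparisons with earlier days were contrasts of the same fit, in which the controls entered the estimate of spread but not the fold changes. Socs3 and Elf3 fell from day 7 to day 14, 2 of 15521 genes or 0.0129%, and 1310 genes (8.44%) had an unadjusted p below 0.05, 4.02% higher and 4.42% lower at day 14. Against day 2 no gene passed by edgeR, with 899 (5.79%) at an unadjusted p below 0.05, 2.64% higher and 3.15% lower. Both day 14 libraries lay above all libraries of day 7 for 26.7% of genes and above those of day 2 for 8.46%. DESeq2 called 140 genes against day 7 and 90 against day 2.

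Socs3 (NCBIM37 chr11:117827393-117831361, minus strand) encodes the feedback inhibitor of STAT3 signalling, which cytokines of the interleukin-6 type induce. It was at 46.4 and 25.4 CPM at day 7 and at 8.20 and 9.60 CPM at day 14. The log2 fold change was -2.01 (SE 0.242, adjusted p = 0.0193 by edgeR). At day 2 it was at 18.4 to 21.4 CPM, and in the controls at 8.73 to 10.3 CPM, so the day 14 libraries stood beside the controls and below all 6 libraries of the earlier days. Elf3 (chr1:137150151-137155049, minus strand), an epithelial ETS factor induced by NF-kB, was at 64.0 and 58.8 CPM at day 7 and at 30.3 and 25.97 CPM at day 14, a log2 difference of -1.13 (SE 0.136, adjusted p = 0.0193 by edgeR). It was at 38.5 to 43.4 CPM at day 2 and at 22.8 to 28.7 CPM in the controls. Neither call held when either day 14 library or day 7 replicate 1 was left out, with adjusted p from 0.200 to 0.599, and Elf3 also lost its call without day 7 replicate 2 (0.0949).

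The 250 bases before the start of these 2 genes are shown because these passed the test against day 7. They were taken from RefSeq on GRCm38.p6, for Socs3 chr11:117969367-117969616 and for Elf3 chr1:135258473-135258722, both on the minus strand. Capitals mark matches on either strand to TTCNNNGAA, the form bound by STAT factors.
Socs3: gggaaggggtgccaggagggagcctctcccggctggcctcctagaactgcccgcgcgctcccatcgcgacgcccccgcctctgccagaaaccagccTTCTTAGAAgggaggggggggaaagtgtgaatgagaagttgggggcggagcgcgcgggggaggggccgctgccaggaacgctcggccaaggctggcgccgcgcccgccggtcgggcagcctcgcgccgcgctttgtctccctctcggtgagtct
Elf3: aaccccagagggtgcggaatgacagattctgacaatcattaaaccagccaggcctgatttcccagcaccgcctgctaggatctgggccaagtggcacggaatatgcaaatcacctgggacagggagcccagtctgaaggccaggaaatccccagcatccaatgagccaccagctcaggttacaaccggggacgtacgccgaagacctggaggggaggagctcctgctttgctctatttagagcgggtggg
Socs3 held 1 match, at 154 to 146 bases before the start, and Elf3 held 0 in this window. TTCNNNGAA occurred in 7.02% of the 32851 promoters of the same length.

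Other genes that were high at day 7 had the same form without passing. Rgs4, which turns off G protein signalling, was at 218.5 and 96.6 CPM at day 7, at 91.7 to 115.1 CPM at day 2, at 52.6 and 45.3 CPM at day 14 and at 39.8 to 45.6 CPM in the controls. The log2 difference from day 7 was -1.69 (SE 0.276, adjusted p = 0.113 by edgeR). Bcl3, a nuclear partner of NF-kB, was at 27.0 and 16.2 CPM at day 7 and at 6.32 and 5.68 CPM at day 14, beside 3.84 to 6.27 CPM in the controls. Vwa5a was at 60.1 and 57.9 CPM at day 7 and at 35.0 and 37.1 CPM at day 14, within the control range of 32.2 to 39.9 CPM. Serping1, the C1 inhibitor of complement, was named against day 2, at 80.9 to 206.5 CPM there and at 53.7 and 48.0 CPM at day 14, with controls at 50.0 to 68.8 CPM. Fkbp5, a glucocorticoid-induced chaperone gene, was at 113.5 to 147 CPM at day 2 and at 81.1 and 75.9 CPM at day 14, which lay just below the control range of 87.0 to 113 CPM. The glypican gene Gpc4 had the smallest log2 difference of those named against day 2, at -0.43 (SE 0.0876).

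Genes on the opposite side were lower at day 7 and near control at day 14. Malat1, a nuclear long noncoding RNA, was at 507.9 and 463.2 CPM at day 7 and at 1230 and 1260 CPM at day 14, and the controls were at 1140 to 1607 CPM. The log2 difference was 1.36 (SE 0.206, adjusted p = 0.0981 by edgeR). D4Wsu53e was at 110.6 and 92.7 CPM at day 7 and at 258.9 and 242.9 CPM at day 14, and Rgs11 at 72.4 and 64.8 CPM and at 152.4 and 137.8 CPM. The noncoding 6720401G13Rik was at 100.5 and 82.1 CPM and then at 261 and 208.6 CPM, and 9930104L06Rik was at 6.51 and 4.40 CPM and then at 11.97 and 11.61 CPM. At day 2 Malat1, D4Wsu53e and 9930104L06Rik lay below all controls, while Rgs11 and 6720401G13Rik overlapped with them. The share of mapped reads in genes was 58.5% and 61.4% at day 7 and 46.9% and 48.2% at day 14, and with this share as a term in the edgeR fit Malat1 differed by 1.26 (adjusted p = 0.0155) and 6720401G13Rik by 1.42 (adjusted p = 0.00724).

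Genes of glucose handling in beta cells were named against day 2. Slc2a2, the glucose transporter GLUT2, was at 320.2, 342.7, 396.1 and 336.7 CPM at day 2, at 296.3 and 403.5 CPM at day 7 and at 619.3 and 591.1 CPM at day 14. Controls were at 499.8, 508.3, 638.7 and 485.4 CPM, so day 14 stood in the control range and above all 6 libraries of the earlier days. The log2 difference from day 2 was 0.79 (SE 0.146, adjusted p = 0.263 by edgeR). Trpm5, a calcium-activated channel that shapes beta cell excitability, was at 25.9 to 42.7 CPM at day 2 and at 89.4 and 92.6 CPM at day 14, beside 63.8 to 107.5 CPM in the controls. Gpd2, the mitochondrial glycerol-phosphate dehydrogenase, was at 103.1 to 133.6 CPM at day 2 and at 194.6 and 183.4 CPM at day 14. The log2 differences of Trpm5 and Gpd2 from day 2 were 1.40 (SE 0.206) and 0.70 (SE 0.122), that of 2210019I11Rik was 1.57 (SE 0.244), and none passed by edgeR. Smn1 and Pdk4, named above against control, were also among the genes with the smallest p against day 2, at 1.14 (SE 0.214) and -1.84 (SE 0.340).

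**Figure D4:**
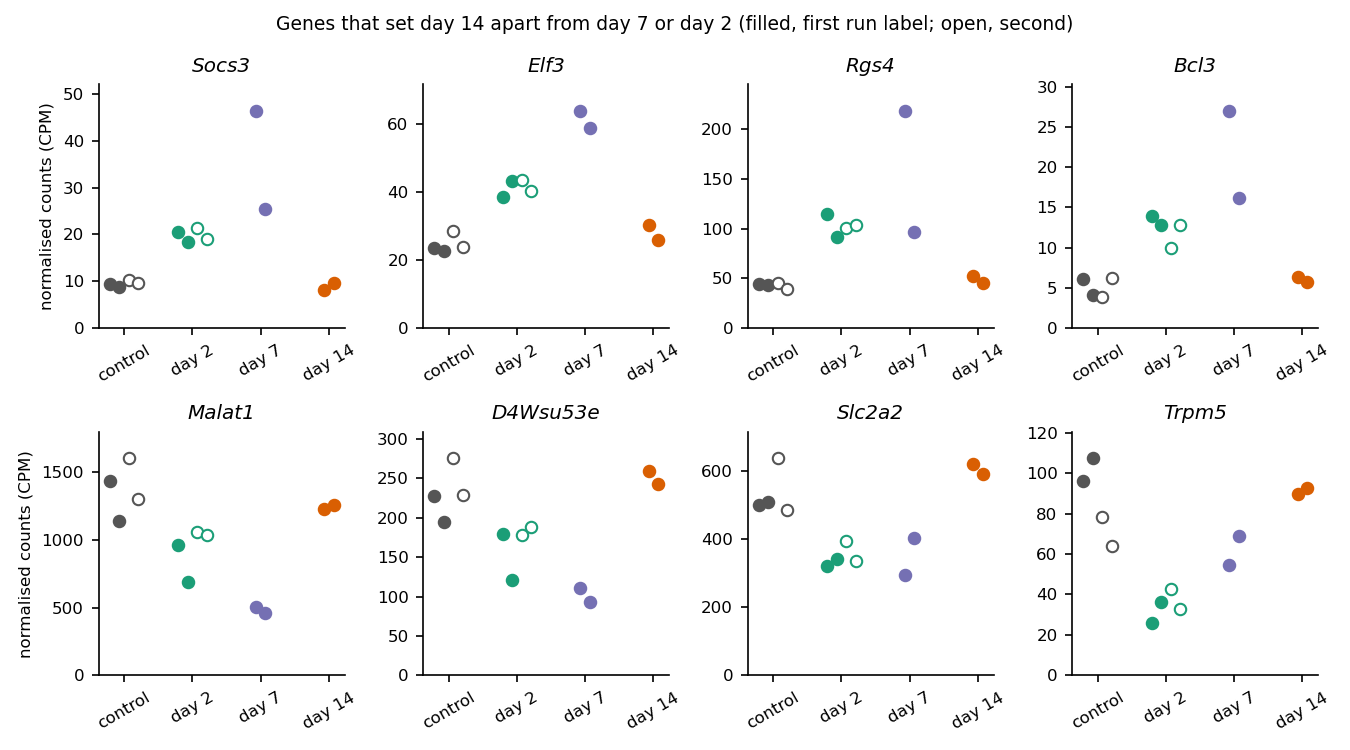
Normalised counts (CPM, linear axis from 0) of 8 genes named for day 14 against day 7 or day 2, in each old islet library. Filled points carry the first run label and open points the second. Socs3 and Elf3 are high at day 7 and at 8.20 to 9.60 and 25.97 to 30.3 CPM at day 14, and Malat1, D4Wsu53e, Slc2a2 and Trpm5 are low at one or both earlier days.

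The day 14 change was tested for a difference between old and young islets in a fit of all 24 libraries, with CPM scaled over all of them. A single gene of 15794 (0.00633%) passed, and 771 (4.88%) were at an unadjusted p below 0.05. The change was the higher one in old islets for 2.14% of genes and in young islets for 2.74%. This was Mdm1 (chr10:117578843-117606053, plus strand), a microtubule-binding protein gene of centrioles. Old controls had 101.7, 131.2, 70.4 and 83.7 CPM and old day 14 islets 94.0 and 73.5 CPM, so the groups overlapped, with a log2 difference of -0.21 (SE 0.181). In young islets it was at 246.1 to 283.2 CPM in the controls and at 77.5 and 70.8 CPM at day 14, a log2 fold change of -1.85 (SE 0.196). The old change minus the young change was 1.64 (SE 0.257, adjusted p = 0.0394 by edgeR). The call was lost when any one of 11 of the 12 libraries of these groups was left out, with old control replicate 2 the exception.

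Other genes named for this difference did not pass. In Rab31, Fkbp5 and Tmtc3, as in Mdm1, young controls lay above every library of the old controls and of both day 14 groups. Fkbp5 was at 85.2 to 110.8 CPM in old controls and at 78.7 and 74.1 CPM in old day 14 islets. In the young it was at 129.9 to 189.2 CPM in the controls and at 60.3 and 55.5 CPM at day 14. Both old day 14 libraries lay below all old controls for Fkbp5 and Tmtc3, but not for Rab31. Rab31 was at 42.7 to 48.5 CPM in old controls and at 47.3 and 42.4 CPM in old day 14 islets, against 57.9 to 63.5 CPM and 37.8 and 31.4 CPM in the young. Tmtc3 was at 124.1 to 133.5 CPM and at 116.5 and 96.8 CPM in the old, against 229.5 to 279.7 CPM and 129 and 115.4 CPM in the young. The differences between the ages were 0.80 (SE 0.142) for Rab31, 1.11 (SE 0.221) for Fkbp5 and 0.76 (SE 0.182) for Tmtc3, with adjusted p of 0.111, 0.288 and 0.830 by edgeR.

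For Pecam1, Trp53 and Dgkb, too, both old day 14 libraries lay outside the old controls. Pecam1 was at 36.2 to 45.3 CPM in old controls and at 26.8 and 29.6 CPM in old day 14 islets, and at 29.4 to 41.6 CPM and 39.0 and 40.6 CPM in the young, a difference of -0.75 (SE 0.179, adjusted p = 0.830 by edgeR). Trp53 was at 29.8 to 36.9 CPM and at 46.4 and 44.4 CPM in the old, and at 34.9 to 37.8 CPM and 28.9 and 34.1 CPM in the young, a difference of 0.64 (SE 0.155). Dgkb, a diacylglycerol kinase gene, was at 13.6 to 19.0 CPM and at 8.36 and 8.72 CPM in the old, while young controls were at 7.56 to 8.76 CPM and young day 14 islets at 9.82 and 10.4 CPM. Vwf was at 23.6 CPM in one young day 14 library and at 1.17 CPM in the other, so its difference of -6.25 (SE 1.43) rested on libraries that disagreed. Fmod differed by -5.41 (SE 1.23) without passing, with young controls at 1.39 to 1.80 CPM and young day 14 islets at 5.22 and 1.85 CPM. For Cdk5rap2 it was the young islets that differed. It was at 14.3 to 16.6 CPM and at 15.0 and 11.58 CPM in the old, with overlap, while young controls were at 11.7 to 15.9 CPM and young day 14 islets at 22.9 and 21.98 CPM.

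**Figure D5:**
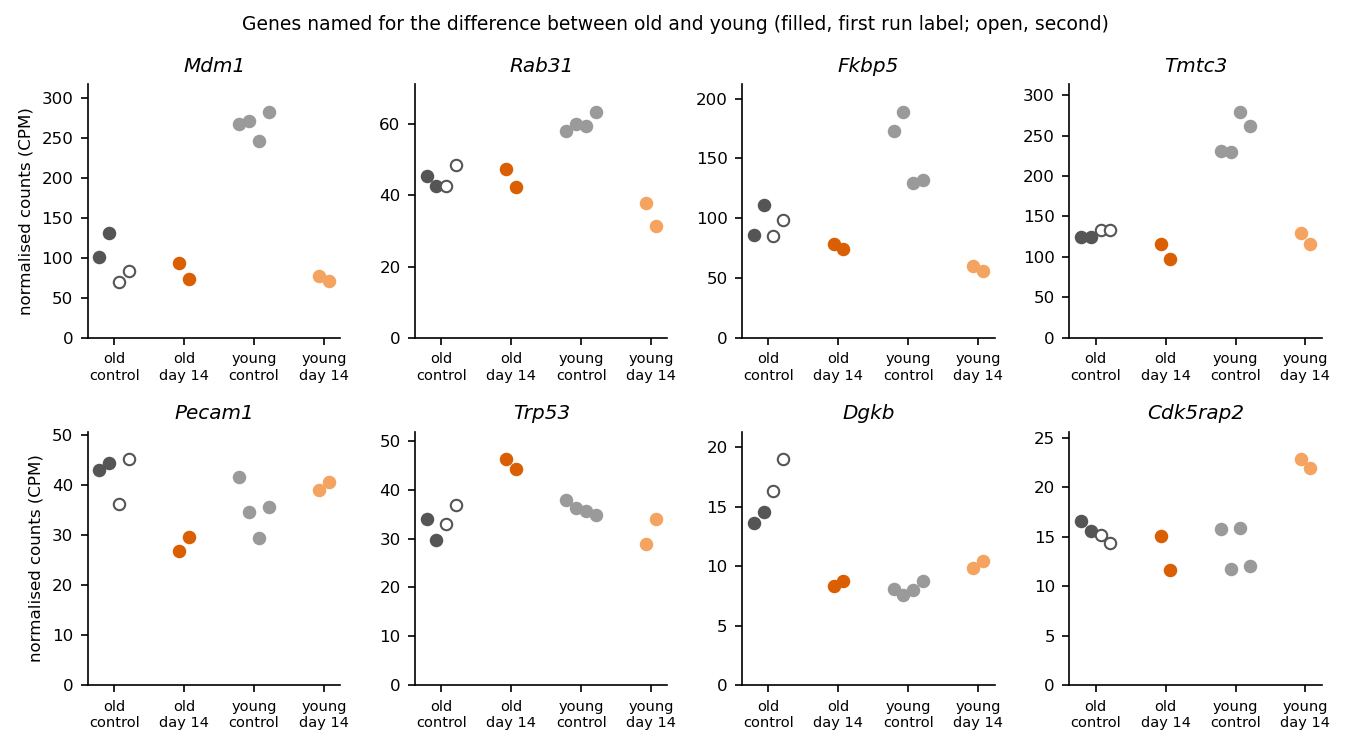
Normalised counts (CPM scaled over all 24 libraries, linear axis from 0) of 8 genes named for a different day 14 change in old and young islets. Each point is a library, and open points carry the second run label. Mdm1 in young controls (246.1 to 283.2 CPM) stands above the other 3 groups, and the old day 14 points of Fkbp5, Tmtc3, Pecam1 and Dgkb lie under all old controls.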

How the data were processed

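Bulk RNA-seq was read from 24 islet libraries, 1 table each. According to the file headers, the authors aligned reads with TopHat to mm9 and used rpkmforgenes with refGene to write uniquely mapped read counts per gene and RPKM values. Both columns were used as deposited, the counts in all fits and RPKM in 1 alternative. The submitters' processing notes name bcl2fastq, CASAVA 1.8.2, Trimmomatic 0.36 and TopHat2 2.1.1, and the methods of the study name HISAT2 and HTSeq instead, so the headers were followed. The labels name a miRNeasy kit and the methods an RNeasy kit for the RNA. Libraries were made from full-length amplified cDNA (SMARTer, Nextera XT) and read from one end. Of 22197 rows, 1458 join several gene names and 193 repeat a name, and such rows were not named.

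The main test was the quasi-likelihood test of edgeR 4.0.16 (R 4.3.3) on the counts of the 12 old libraries, with TMM factors, filterByExpr and Benjamini-Hochberg adjustment at 0.05. It used contrasts of day 14 against control, day 7 and day 2. The old and young changes were compared in 1 fit of 24 libraries. All old libraries shared 1 estimate of spread because day 14 had 2, and the study made no day 14 test. DESeq2 1.42.0, limma 3.58.1 on log2(RPKM + 1), other scalings and filters, the run label, the share of mapped reads in genes, first-run libraries alone and leaving out each library were alternatives. Intervals and limits on counts of 0 cover counting error only. The edgeR test of day 14 against control was also run on simulated counts with known changes. Those counts had a common mean per gene and no run label or tissue difference. They cannot show how the test behaves on these libraries. The pair of day 14 libraries differed beyond sampling noise (chi-square of 9.47 per degree of freedom) and were counted as separate samples. This library preparation does not mark strand, so reads of overlapping and antisense genes cannot be told apart.

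Named genes were the 12 with the smallest unadjusted p in each direction (1 unrepeated name, mean log2 CPM above 1, day 14 outside all controls), 20 fixed genes, the 3 smallest p of each of 26 lists, and 5 in each direction for the other comparisons. Some genes that this rule selects are not reported here. The members, lists and tests were chosen with earlier results of these data known. Positions are from GENCODE vM1 on NCBIM37 (mm9), and promoters from RefSeq on GRCm38.p6.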

Additional observations from a re-analysis of the deposited data

Results flagged for a closer look

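In 9 of 163 measures checked, 1 of the 4 old control libraries stood apart from the other 3 by a gap larger than Dixon's 95% critical value allows. Chance flags about 1 in 20 groups. Replicate 1 was low for Epas1 (5.80 on the log2 CPM scale) and high for the insulin receptor gene Insr (4.597). Replicate 2 was low for Smn1 (2.66) and high for Gcg (14.7). Replicate 3 was low for the matrix protein gene Mgp (3.92) and high for Slc2a2 (9.32). Replicate 4 was low for Sephs2 (5.78) and Ins2 (16.5) and high for Cdk6 (2.41), where the next control was at -0.93. The direction of the day 14 difference for Smn1, Epas1, Sephs2 and Gcg was kept when that control was left out.

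The day 14 change of Mdm1 differed between the ages by 1.64 on the log2 scale (SE 0.257, adjusted p = 0.0394 by edgeR), the one gene of 15794 past the threshold of that test.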

How the results depend on the processing

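With 2 libraries at day 14, a single library decided several values, and 0 calls at this depth of replication say little about differences of modest size. Day 14 against control gave 0 genes in 20 of 22 alternatives, including the first-run libraries alone (lowest adjusted p 0.0546 with 8 libraries and 0.0747 with 4) and the removal of each library (0 to 0), and DESeq2 gave 3 genes, or 10 on only the 6 libraries (chosen after seeing the data). Against day 7 there were 2 genes, 140 by DESeq2, 132 with the run label, 50 with the percentage of reads in genes as a term, 0 by limma, and 0 to 2 leaving out 1 library, with 0 without day 7 replicate 1 or either day 14 library. Against day 2 there were 0 genes, 90 by DESeq2, 11 with the run label, 28 with that percentage, and 0 to 3 leaving out 1 library, with 3 without day 2 replicate 4. The difference with age gave 1 gene, 5 by DESeq2, 0 by limma, 0 with only the 12 libraries, and 0 to 1 leaving out 1 library. The 10 genes that DESeq2 called on only the 6 libraries were Reg1, Vwf, Pdk4, Pnliprp2, Fmod, Ctrl, Myh11, Clps, Gm13011 and Sycn. All were lower at day 14. The causes of the differences between settings were not tested.

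Same-numbered day 14 and control libraries deviated with correlations of 0.0616 and 0.0803, and with other days from -0.0209 to 0.0161. Both day 7 pairs gave the same value, because deviations within a group of 2 libraries mirror each other. Such values cannot show whether same-numbered libraries share more than a number. The replicate block gave 0 genes against control, 446 against day 7 and 72 against day 2, and with that percentage as well 23 and 16.

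Of 2956 values of named genes under alternatives, 2794 kept direction and side of the threshold, 78 passed it, 24 lost it and 60 reversed. Under the replicate block Atf3 was at 0.78, Iapp -0.13, Pcna -0.037, Reg2 0.90, Reg3a 1.92, Reg3b 0.60, Reg3d 0.95, Reg3g 2.15 and Ube2c 0.012. With the run label Atf3 was at 0.63, Iapp -0.13, Pcna -0.033, Reg2 1.05, Reg3a 2.06, Reg3b 0.74, Reg3d 0.97 and Reg3g 2.23. With the percentage of reads in genes Atf3 was at 0.42, Cdk6 0.28, Reg2 1.36, Reg3a 2.67, Reg3b 1.51, Reg3d 0.75 and Reg3g 2.73. With this percentage and the replicate block Atf3 was at 0.38, Cenpf 0.052, Chac1 0.15, H2-K1 -0.013, Iapp -0.06, Ins2 0.094, Mki67 0.072, Pcna -0.013, Reg2 0.95, Reg3a 3.38, Reg3b 6.87, Reg3d 0.996, Reg3g 5.49, Trib3 0.26 and Ube2c 0.082. With 8 first-run libraries Atf3 was at 0.73, Hspa5 -0.005, Iapp -0.17, Reg3a 3.05, Reg3b 1.04 and Reg3g 1.05, and with 4 Atf3 was at 0.73, Hspa5 -0.007 and Iapp -0.18. Leaving out 1 library gave -2.32 to 0.13 for Atf3, -0.98 to 0.072 for Chac1, -1.67 to 3.39 for Cxcl10, -0.17 to 0.64 for Mcm2, -0.82 to 1.11 for Mcm5, -0.055 to 0.44 for Mcm6, -1.12 to 0.20 for Mki67, -0.019 to 0.26 for Pcna, -0.024 to 0.88 for Ppy, -0.88 to 1.01 for Reg3a, -0.78 to 0.19 for Reg3g and -0.10 to 0.056 for Sst. Mcm2, Mcm5, Mcm6, Pcna and Chac1 turned without day 14 replicate 1, Cxcl10, Mki67 and Ppy without replicate 2, Atf3 without control replicate 4, Reg3a and Reg3g without control replicate 3, and Sst without control replicate 2.

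Of 572 list medians under alternatives 46 moved by more than 1 SD of the controls. Over those settings and the removal of 1 library, the Reg family ran from -3.49 to 2.19, the circadian clock from -0.35 to -0.03, glycolysis and hypoxia from 0.08 to 0.24, the interferon response from -0.11 to 0.80, S phase from -0.11 to 0.42, the PERK-ATF4 arm from -0.14 to 0.15, ductal markers from -0.35 to 0.18 and inflammation from -0.22 to 0.24. With the percentage and the block acinar markers were at -1.38, alpha, delta and PP cell markers at -0.41 and cholesterol synthesis at 0.09, which was 0.10 without day 14 replicate 2. Immediate early genes were at -0.20 with the block and -0.21 with the run label. Leaving out 1 library gave -0.35 to -0.10 for leukocyte markers, -0.64 to -0.13 for Schwann and neuronal markers, -0.48 to -0.27 for disallowed genes, -0.25 to -0.06 for growth signals and 0.04 to 0.19 for oxidative phosphorylation, which was -0.03 with first-run libraries.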

Other observations

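Leukocyte markers were close to control. Of 19 tested members 16 had a negative log2 fold change, beside 8496 of all 15521 genes. Their median was -0.17, and 2 were lower at an unadjusted p below 0.05, beside 3.02% of all genes. Lyz2, the macrophage lysozyme gene, was at 35.9, 44.4, 26.7 and 47.8 CPM in the controls and at 28.6 and 19.9 CPM at day 14, and at 44.9 and 40.1 CPM at day 7. Itgam was at 2.12 to 6.53 CPM against 2.15 and 1.67 CPM. Genes of antigen presentation had a median of 0.05 over 12 tested members against control and of -0.48 against day 7, where 11 of the 12 lay below both day 7 libraries beside 24.2% of all genes. B2m, the shared chain of class I molecules, was at 50.5 to 78.3 CPM in the controls, 96.9 and 92.6 CPM at day 7 and 48.8 and 54.02 CPM at day 14. H2-K1 was at 624.6 and 632 CPM at day 7 and at 516.3 and 522.5 CPM at day 14, with controls at 383 to 498.1 CPM, and Ciita at 1.76 to 4.66 CPM in the controls against 1.75 and 1.17 CPM. Inflammation genes had a median of 0.12 over 18 tested members, and Nfkbia, the NF-kB inhibitor gene, was at 115 and 137.1 CPM at day 7 and at 61.2 and 76.9 CPM at day 14. Il6 had 3 to 15 counts in the controls and 3 and 4 at day 14.

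Clock genes had a median of -0.25 over 15 tested members, and Per1 was at 4.52, 6.69, 3.34 and 7.18 CPM in the controls and at 2.15 and 2.84 CPM at day 14, a log2 difference of -1.10 (SE 0.361, unadjusted p = 0.0101, adjusted p = 0.760 by edgeR). Per2 and Nr1d2 differed by -0.41 (SE 0.197) and -0.30 (SE 0.144). Ribosomal protein genes had a median of -0.09 over 19 tested members, and Rpl37 was at 51.8 to 65.6 CPM against 37.1 and 40.0 CPM, while Rps23 and Rpl23 differed by -0.14 (SE 0.0928) and -0.25 (SE 0.159). Genes of oxidative phosphorylation had a median of 0.11 over 21 tested members against control and of -0.18 against day 7. Below both day 7 libraries lay 15 of them, beside 24.2% of all genes. Atp5o, Ndufs8 and Ndufb9 had the smallest p against control, at 0.43 (SE 0.211), 0.36 (SE 0.183) and 0.24 (SE 0.138).

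Growth signal genes had a median of -0.10 over 12 tested members. Pdgfrb was at 33.6 to 46.6 CPM against 27.8 and 30.1 CPM, and the insulin receptor gene Insr at 16.9 to 23.98 CPM against 14.5 and 14.7 CPM, with both day 14 libraries below all controls. Igf1r, listed with the cell cycle inhibitor and senescence genes, was at 43.5 to 49.8 CPM against 36.4 and 40.6 CPM. Cdk6 had 1, 1, 3 and 39 counts in the controls and 2 and 5 at day 14. Beta cell disallowed and dedifferentiation genes, normally silent in mature beta cells, had a median of -0.40 over 13 tested members. All 13 had a negative fitted difference, beside 8496 of all 15521 genes, and 0 lay below all controls, beside 7.23%. Oat and Cxcl12 differed by -0.41 (SE 0.217) and -0.65 (SE 0.398). The PERK-ATF4 arm had a median of -0.03 over 11 tested members, and Trib3, Atf3 and Chac1 overlapped between the groups. Ductal markers had a median of 0.05 over 11, with Krt8 at 83.8 to 97.7 CPM against 106.6 and 119.1 CPM and Tff2 at 5 to 37 counts against 0 and 1. Schwann and neuronal markers had a median of -0.46 over 8, with Gfap and Sox10 overlapping between the groups.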
